A study of Mus musculus with 12 samples.

Results

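The 8 genes described here act where an antigen-presenting macrophage meets a T cell: Pdcd1lg2, Cd274, Cd80, Cd86, Icosl and Cd276, ligands of the B7 family, the receptor Cd40 and the secreted enzyme Il4i1. They were picked out by the gene names in the scanner files. They make up 8 of the 18426 genes tested, and 11 of the 41174 probes on the array carried one of their names. Bone marrow macrophages of Balb/cAnNCrl and C57BL6/J mice, called Balb/c and C57BL6 from here on, were profiled on 12 one-colour Agilent arrays, 2 in each of 6 groups. In each strain one group was mock cells kept 18 h without cytokine, one received mouse recombinant IL-4 (interleukin-4) at 10 ng/ml for 4 h, and one received that dose for 18 h. The mice were 8 to 12 weeks old, each sample pooled cells of 2 males and 1 female, and all cells had been grown from marrow with human rCSF1. The 2 samples of a group came from separate experiments with different littermates, and the 4 h cells had no mock of their own duration. The treatment notes also describe LPS, which no sample's labels name.

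A T cell that recognises antigen needs a further, costimulatory signal to become fully active, and the presenting cell can give or withhold it. Cd80 and Cd86 bind the activating receptor CD28 and the inhibitory receptor CTLA-4, and Icosl binds the activating receptor ICOS. Cd274 (PD-L1) and Pdcd1lg2 (PD-L2) bind the inhibitory receptor PD-1, while stimulatory as well as inhibitory roles have been described for Cd276 (B7-H3). Cd40 runs the other way, receiving CD40 ligand from the T cell and activating the macrophage through TRAF adaptors and NF-kappaB, and Il4i1 is an amino acid oxidase that restrains T cells by consuming aromatic amino acids. Pdcd1lg2 and Il4i1 are known in macrophages and B cells as genes that IL-4 switches on through the transcription factor STAT6.

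The promoters of Pdcd1lg2, Il4i1 and Icosl, the genes called in both strains after 18 h of IL-4, are shown here together with that of Cd274, the chromosome 19 neighbour of Pdcd1lg2, whose start lies 43481 bases before that of Pdcd1lg2. Each is the stretch of 250 bases before the annotated start, 5′ to 3′, from RefSeq on GRCm38.p6, which held an entry for 6 of the 8 genes (all but Cd40 and Cd86). Capitals mark a match to one of 3 motifs searched on both strands.
Pdcd1lg2 (chr19:29410669-29410918, + strand): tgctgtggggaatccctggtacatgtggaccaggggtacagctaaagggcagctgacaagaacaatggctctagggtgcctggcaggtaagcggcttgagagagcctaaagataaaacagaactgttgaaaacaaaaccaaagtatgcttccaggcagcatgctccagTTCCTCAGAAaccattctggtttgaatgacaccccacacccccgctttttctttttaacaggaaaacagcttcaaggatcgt
Il4i1 (chr7:44836038-44836287, + strand): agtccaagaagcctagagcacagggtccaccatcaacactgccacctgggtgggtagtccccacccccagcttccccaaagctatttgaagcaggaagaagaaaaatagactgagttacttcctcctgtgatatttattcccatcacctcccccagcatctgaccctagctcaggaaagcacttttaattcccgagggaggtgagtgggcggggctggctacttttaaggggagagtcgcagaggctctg
Cd274 (chr19:29367188-29367437, + strand): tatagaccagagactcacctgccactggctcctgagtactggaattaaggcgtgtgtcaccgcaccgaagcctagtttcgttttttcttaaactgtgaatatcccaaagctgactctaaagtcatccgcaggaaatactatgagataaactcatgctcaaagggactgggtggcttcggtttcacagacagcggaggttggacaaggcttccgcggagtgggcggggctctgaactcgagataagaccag
Icosl (chr10:78069118-78069367, + strand): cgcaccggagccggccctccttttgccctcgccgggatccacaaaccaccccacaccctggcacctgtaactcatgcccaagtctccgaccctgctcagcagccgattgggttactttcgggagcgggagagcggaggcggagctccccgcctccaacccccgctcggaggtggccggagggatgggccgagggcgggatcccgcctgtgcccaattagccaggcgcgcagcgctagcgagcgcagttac
The motifs were TTCNNNNGAA, the spacing that STAT6 prefers, TTCNNNGAA, the spacing of other STAT factors, and GAAANNGAAA with its other strand TTTCNNTTTC, a core of interferon-responsive elements. Both STAT motifs read the same on either strand. The Pdcd1lg2 promoter held 1 match, TTCCTCAGAA, from 82 to 73 bases before the start, and no stretch of the other 5 genes held any of the 3 motifs. Among all 32851 such stretches in the table, 5.85% held TTCNNNNGAA, 7.02% held TTCNNNGAA and 2.98% held the interferon-type core. A match is only a run of letters and no measurement of binding.

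Of the spots on an array, 54.9% to 69.7% were well above background by the scanner's call, the 75th percentile of the processed signal was 1196 to 1690 scanner units, and replicate arrays correlated at r of 0.974 to 0.989 across the genes tested. A level below is the log2 processed signal minus the log2 of the array's 75th percentile, so 0 is the 75th percentile, and levels of different probes are not set against each other. With 2 arrays in a group, the number of arrays limits the precision, and a p-value measures only the spread between these pooled samples. All 7 macrophage markers, such as Csf1r and Adgre1, were well above background in every group. Among 6 T cell markers, 2 to 3 were well above background on both arrays of a group, while Cd3d stayed at background on all 12 arrays. Of 6 dendritic cell markers, 3 to 5 were well above background in a group, and their summed linear level ran from 0.457 to 0.824 in Balb/c IL-4 cells, against 0.374 to 0.686 in Balb/c mock cells, and from 0.24 to 0.352 in C57BL6 IL-4 cells, against 0.241 to 0.31 in C57BL6 mock cells. Dendritic cells express most of these ligands, and their part in the results was not tested. Of 6 genes known to be induced by IL-4 and used as a treatment check, 3 rose in Balb/c cells at 4 h and 5 at 18 h, 4 rose in C57BL6 cells at 4 h and 6 at 18 h, and 0 fell. Those not called were Ccl24, Chil3 and Mrc1 in Balb/c cells at 4 h, Ccl24 in Balb/c cells at 18 h, and Ccl24 and Chil3 in C57BL6 cells at 4 h. Arg1, Retnla and Socs1 rose in all 4 comparisons. Socs1, an IL-4-induced feedback inhibitor of cytokine signalling, was higher in both strains at both times, by 4.61 ± 0.20 (SE) on the log2 scale in Balb/c cells at 4 h and 5.22 ± 0.20 in C57BL6 cells at 4 h (limma with Benjamini-Hochberg adjustment over all genes tested, adjusted p = 2.17e-04 and 8.01e-05). Every adjusted p below comes from that fit unless another is named, and a gene is called at an adjusted p under 0.05. The adjusted p of a gene's further probe comes from the same model fitted to all 27371 kept probes.

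Against mock, Pdcd1lg2 and Il4i1 rose in both strains at both times, Cd40 rose in both strains at 4 h and was not called at 18 h, and Icosl and Cd276 were the members that fell. The members were chosen with earlier results of these data known, so their counts are set beside the shares of all genes only as a description. In Balb/c cells at 4 h, 3 of 8 members rose and 0 fell, against 1.43% of all genes tested called, 0.944% higher and 0.488% lower. After 18 h in Balb/c cells, 2 rose and 2 fell (Icosl and Cd276), against 3.73% of all genes called, 1.37% higher and 2.36% lower. In C57BL6 cells at 4 h, 3 rose and 1 fell (Icosl), against 3.25% of all genes called, 1.56% higher and 1.68% lower. After 18 h in C57BL6 cells, 2 rose and 1 fell (Icosl), against 4.29% of all genes called, 1.69% higher and 2.6% lower. The IL-4 and mock arrays of 5, 5, 7 and 7 of the 8 members did not overlap in these 4 comparisons, against 31%, 42.4%, 49.3% and 51.6% of all genes. The median change over the members was 1.00, 0.09, 1.31 and 0.35, beside 0.02, 0.02, -0.03 and -0.04 over all genes. Cd274, Cd80 and Cd86 passed the test in none of these 4 comparisons, of which 2 in each strain share that strain's mock arrays. With the replicate number as a block within strain, 5 of 8 members were called in each of the 4 comparisons, with 7.32%, 15.1%, 16.6% and 17.4% of all genes called. The added calls were Cd274 in all 4, Icosl in Balb/c cells at 4 h and Cd276 in C57BL6 cells at 18 h. Under normexp background correction the 4 counts were 0, 0, 0 and 1 (Il4i1 in C57BL6 cells at 18 h), with 3, 138, 24 and 130 genes called in all.

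**Figure D1:**
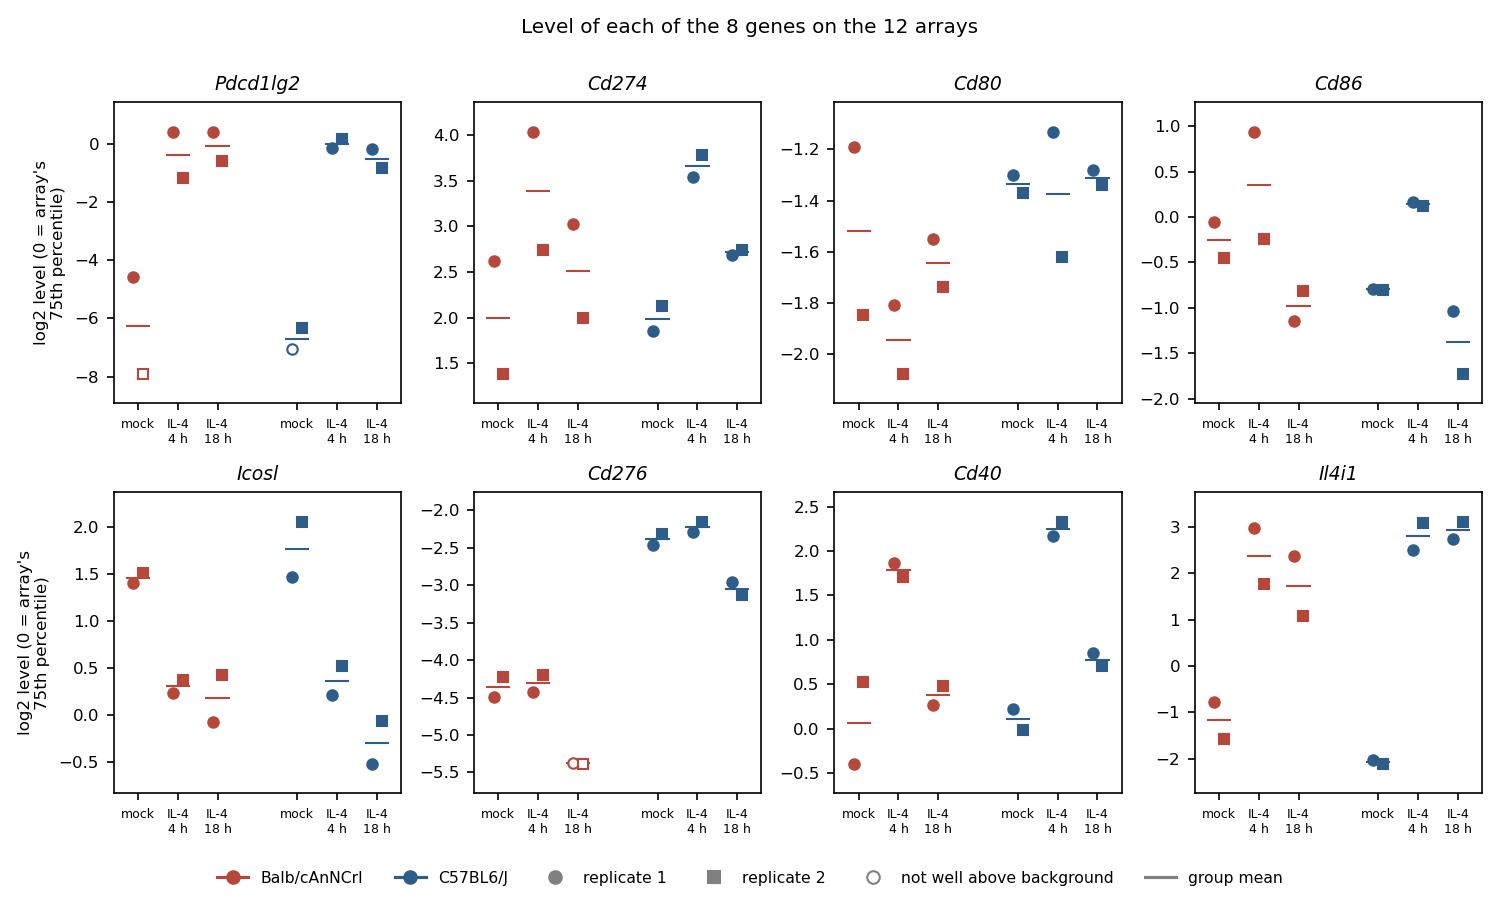
Log2 level of each of the 8 genes (vertical axes, 0 is the array's 75th percentile, a scale of its own in each panel) in mock cells and after 4 h and 18 h of IL-4, for Balb/c (left side of each panel) and C57BL6 (right side). Points are single arrays, open points were not well above background and bars are group means. Pdcd1lg2 and Il4i1 sit higher on all 8 IL-4 arrays than on any of the 4 mock arrays, Icosl sits lower on all 8, and Cd276 is lower on every Balb/c array than on every C57BL6 array.

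Pdcd1lg2, the PD-L2 gene, was at the edge of detection in mock cells and near the array's 75th percentile after IL-4. Its Balb/c levels were -4.58 and -7.92 in mock (replicates 1 and 2), 0.43 and -1.15 after 4 h of IL-4, and 0.44 and -0.57 after 18 h. Its C57BL6 levels were -7.06 and -6.32 in mock, -0.12 and 0.17 after 4 h, and -0.16 and -0.83 after 18 h. The probe was well above background on 1 of 2 mock arrays in each strain (replicate 1 in Balb/c, replicate 2 in C57BL6) and on all 8 IL-4 arrays, and IL-4 and mock arrays did not overlap in any of the 4 comparisons. In raw terms, the processed signal was 1340 and 1680 scanner units in C57BL6 cells after 4 h, against 10.6 and 21.1 in C57BL6 mock cells.

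The log2 increase of Pdcd1lg2 was 5.89 ± 1.00 (SE) at 4 h and 6.19 ± 1.00 at 18 h in Balb/c cells (adjusted p = 0.035 and 0.0135), and 6.72 ± 1.00 at 4 h and 6.20 ± 1.00 at 18 h in C57BL6 cells (adjusted p = 0.0119 and 0.0131). With every value raised to at least the array's lowest level well above background, the increases were 4.76 and 5.05 in Balb/c cells and 6.06 and 5.54 in C57BL6 cells, all called, so the size beyond those values rests on spots near background. On the slide that held both groups, the differences were 6.68 at 4 h and 6.69 at 18 h in Balb/c cells (slide 1), and 6.93 and 6.50 at 4 h (slides 2 and 3) and 5.83 at 18 h (slide 3) in C57BL6 cells. No difference between 18 h and 4 h was called, although in C57BL6 cells both 18 h arrays lay below both 4 h arrays. The log2 difference was 0.29 (95% interval -2.01 to 2.59) in Balb/c cells and -0.52 (-2.82 to 1.78) in C57BL6 cells. Both intervals span more than 4 log2 units, and the Balb/c mock replicates, which enter the same error, stood at -4.58 and -7.92.

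Leaving out 1 array shows how far single arrays carry the Pdcd1lg2 calls. The Balb/c 4 h call was lost without any array but Balb/c mock replicate 1 (adjusted p 0.06 to 0.158), and with a slide block (adjusted p = 0.0528). The size of the Balb/c increase turned on the mock pair: dropping mock replicate 2 gave 4.22 at 4 h and 4.52 at 18 h, and dropping mock replicate 1 gave 7.57 and 7.86. The Balb/c 18 h call was lost without either Balb/c 18 h array (adjusted p up to 0.0958). The C57BL6 calls at 4 h and at 18 h were lost without any single array of the 2 groups compared (adjusted p up to 0.108 and 0.105), with log2 increases of at least 5.83 in each case. Under normexp background correction the 4 increases were 2.61 and 2.89 in Balb/c cells and 1.95 and 1.49 in C57BL6 cells, none called.

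Cd274, the PD-L1 gene, was already well above background in mock cells. Levels in Balb/c cells were 2.62 and 1.38 in mock, 4.04 and 2.74 after 4 h, and 3.03 and 2.00 after 18 h. Levels in C57BL6 cells were 1.85 and 2.13 in mock, 3.54 and 3.78 after 4 h, and 2.69 and 2.74 after 18 h. Every 4 h array was above every mock array of its strain, while in Balb/c cells replicate 1 was the higher of the pair in all 3 groups. The 4 h difference from mock was 1.39 ± 0.54 in Balb/c cells (adjusted p = 0.406) and 1.67 ± 0.54 in C57BL6 cells (adjusted p = 0.173), neither called.

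With the replicate number as a block, the same Cd274 differences at 4 h had an adjusted p of 0.00682 in Balb/c cells and 0.00225 in C57BL6 cells. At 18 h Cd274 was 0.52 above mock in Balb/c cells and 0.72 above mock in C57BL6 cells (adjusted p = 0.732 and 0.57 without the block, 0.0366 and 0.0131 with it). Within 1 slide, the 4 h difference was 2.04 in Balb/c cells (slide 1) and 1.69 and 1.65 in C57BL6 cells (slides 2 and 3).

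Il4i1, the amino acid oxidase gene, was measurable before IL-4 and rose in all 4 comparisons. In Balb/c cells it stood at -0.78 and -1.57 in mock, 2.98 and 1.77 after 4 h, and 2.38 and 1.08 after 18 h. In C57BL6 cells it stood at -2.03 and -2.12 in mock, 2.51 and 3.10 after 4 h, and 2.74 and 3.12 after 18 h. All arrays were well above background, and the 8 IL-4 arrays were above all 4 mock arrays. The increase was 11.7-fold at 4 h and 7.48-fold at 18 h in Balb/c cells (log2 3.55 ± 0.53 and 2.90 ± 0.53, adjusted p = 0.0217 and 0.0222). The C57BL6 increase was 29.4-fold at 4 h and 32-fold at 18 h (log2 4.88 ± 0.53 and 5.00 ± 0.53, adjusted p = 0.00445 and 0.00265).

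The C57BL6 18 h call of Il4i1 held without any 1 of the 12 arrays, and the C57BL6 4 h call was lost without C57BL6 4 h replicate 2 (log2 4.58, adjusted p = 0.0515). The Balb/c 4 h call was lost without any one of 5 arrays, namely Balb/c 4 h replicate 1, either Balb/c mock array and either C57BL6 18 h array (log2 2.95 to 3.95, adjusted p up to 0.117). The Balb/c 18 h call was lost without Balb/c 18 h replicate 1 or either Balb/c mock array (log2 2.26 to 3.30, adjusted p up to 0.124). Within slide 1 the Balb/c differences were 4.15 at 4 h and 3.55 at 18 h, and within slides 2 and 3 the C57BL6 differences at 4 h were 4.54 and 5.22. The 18 h increase was smaller in Balb/c than in C57BL6 cells by 2.10 ± 0.75 on the log2 scale, a difference in response that was not called (unadjusted p = 0.0232, adjusted p = 0.914). The slide-block fit put that difference in response at -1.34 (adjusted p = 0.514).

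**Figure D2:**
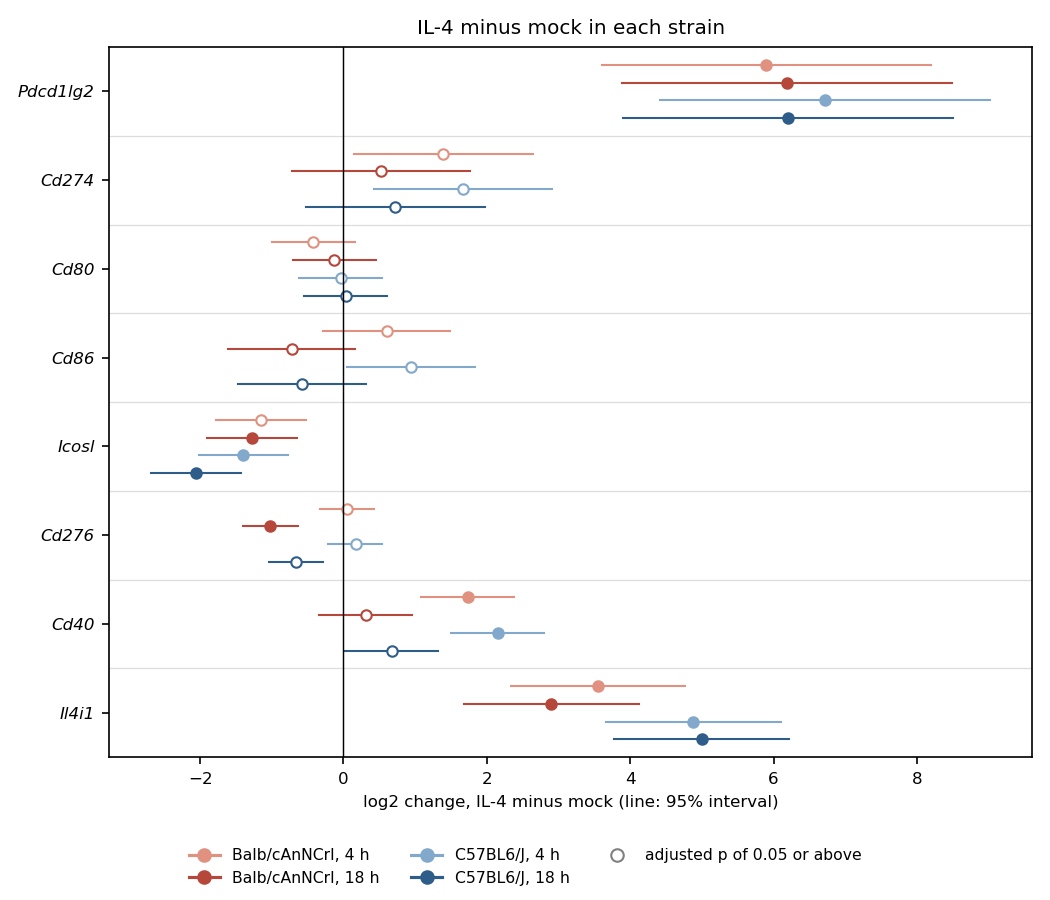
Log2 change of each gene after IL-4, IL-4 minus mock, for Balb/c and C57BL6 cells at 4 h and 18 h. Points are limma estimates, lines their 95% intervals, and filled points have an adjusted p under 0.05. Pdcd1lg2 and Il4i1 are filled to the right of 0 in all 4 comparisons, Cd40 only at 4 h, and Icosl is filled to the left of 0 in 3 of 4. The Cd276 point of Balb/c cells at 18 h is read as a bound, at least 1.69-fold lower.

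Icosl, the ligand of ICOS, a receptor on T cells, was lower after IL-4. The Balb/c levels were 1.41 and 1.51 in mock, 0.24 and 0.38 after 4 h, and -0.07 and 0.43 after 18 h. The C57BL6 levels were 1.47 and 2.06 in mock, 0.22 and 0.52 after 4 h, and -0.52 and -0.06 after 18 h. Both mock arrays of each strain were above all of its IL-4 arrays. In Balb/c cells Icosl fell by 1.28 ± 0.27 on the log2 scale at 18 h, to 0.412 of mock (adjusted p = 0.0433), and the 4 h difference of -1.15 ± 0.27 was not called (adjusted p = 0.111, or 0.0137 with the replicate block). In C57BL6 cells Icosl fell by 1.40 ± 0.27 at 4 h (adjusted p = 0.0341) and by 2.06 ± 0.27 at 18 h, to 0.24 of mock (adjusted p = 0.00593).

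The C57BL6 18 h call of Icosl was lost without C57BL6 18 h replicate 1 (log2 -1.83, adjusted p = 0.0581). The C57BL6 4 h call was lost without any C57BL6 array or either Balb/c mock array (log2 -1.10 to -1.70, adjusted p 0.0523 to 0.224), and the Balb/c 18 h call was kept only without one or the other C57BL6 mock array (otherwise adjusted p 0.0615 to 0.233). Within a slide the differences were -1.22 at 4 h and -1.53 at 18 h in Balb/c cells (slide 1), and -1.25 and -1.54 at 4 h (slides 2 and 3) and -2.35 at 18 h (slide 3) in C57BL6 cells. A further Icosl probe, 7652 bases away in the files' coordinates, stayed at background on all 12 arrays and gives no level. Markers of B cells, which also carry ICOS ligand, were measured too: 3 of 5 were well above background in Balb/c cells and 4 of 5 in C57BL6 cells, in mock and at 18 h. Their summed level was 0.939 to 1.05 in Balb/c cells at 18 h, against 1.05 to 1.65 in Balb/c mock cells. In C57BL6 cells that sum was 1.03 to 1.58 at 18 h, against 2.15 to 3.1 in C57BL6 mock cells. At 4 h the B cell sum was 1.37 to 1.88 in Balb/c and 2.28 to 3.15 in C57BL6 cells. These sums are of linear levels relative to the 75th percentile. The summed level of the 7 macrophage markers was also lower at 18 h, at 349 to 389 in Balb/c IL-4 cells, against 540 on both Balb/c mock arrays, and at 330 to 354 in C57BL6 IL-4 cells, against 449 to 510 in C57BL6 mock cells. At 4 h the macrophage sum was 424 to 480 in Balb/c and 407 to 412 in C57BL6 cells. The part of either list in the Icosl result was not tested, and in such bulk samples fewer cells of a type and less RNA per cell cannot be told apart.

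Cd80 and Cd86, the ligands of CD28 and CTLA-4, did not pass the test against mock at either time. The tested Cd80 probe ran from -1.19 to -2.08 over the 6 Balb/c arrays and from -1.13 to -1.62 over the 6 C57BL6 arrays, with IL-4 and mock arrays overlapping in both strains. Its difference from mock was -0.42 at 4 h (95% interval -1 to 0.16) and -0.13 at 18 h (-0.71 to 0.45) in Balb/c cells. The C57BL6 differences were -0.04 at 4 h (-0.62 to 0.54) and 0.03 at 18 h (-0.55 to 0.61). The farthest bounds of these 4 intervals were -1 and 0.61. A further Cd80 probe, 21458 bases away, gave differences of -0.23, 0.16, 0.04 and 0.07 in the same order.

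Cd86 was highest at 4 h and lowest at 18 h on the means of both strains. The Balb/c arrays read -0.06 and -0.45 in mock, 0.94 and -0.24 after 4 h, and -1.14 and -0.81 after 18 h. The C57BL6 arrays read -0.79 and -0.80 in mock, 0.17 and 0.12 after 4 h, and -1.03 and -1.73 after 18 h. The 18 h arrays were below the 4 h arrays in both strains, while 4 h and mock arrays of this tested probe overlapped in Balb/c cells. Against mock, the 4 h difference was 0.60 ± 0.39 in Balb/c and 0.94 ± 0.39 in C57BL6 cells, and the 18 h difference was -0.72 ± 0.39 and -0.58 ± 0.39 (adjusted p 0.283 to 0.748). The 18 h minus 4 h difference was -1.33 ± 0.39 in Balb/c cells and -1.52 ± 0.39 in C57BL6 cells, with unadjusted p of 0.00876 and 0.00425 but adjusted p of 0.227 and 0.146, so it was not called. A further Cd86 probe gave -0.94 ± 0.27 and -1.21 ± 0.27 (adjusted p = 0.232 and 0.106), lower at 18 h as well. On that further probe the Balb/c 4 h arrays, at -0.24 and -0.91, were above mock, at -1.19 and -1.12. That difference of 0.58 ± 0.27 was not called.

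Cd40, the receptor for T cell help, rose in both strains at 4 h. Its single probe is printed as 10 spots on each array, whose log2 signals had an SD of 0.0395 to 0.0985 within an array. Its Balb/c arrays read -0.40 and 0.53 in mock, 1.86 and 1.71 after 4 h, and 0.27 and 0.48 after 18 h. Its C57BL6 arrays read 0.22 and -0.01 in mock, 2.17 and 2.33 after 4 h, and 0.85 and 0.70 after 18 h. All 4 arrays of the 4 h groups stood above the 8 others, and the gap between the Balb/c mock replicates was far wider than the spread between spots. The 4 h increase was 3.31-fold in Balb/c cells (log2 1.73 ± 0.28, adjusted p = 0.0307) and 4.43-fold in C57BL6 cells (log2 2.15 ± 0.28, adjusted p = 0.00747). At 18 h the difference from mock was 0.31 ± 0.28 and 0.67 ± 0.28 (adjusted p = 0.692 and 0.27), called in neither strain.

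The Balb/c 4 h call of Cd40 was kept only when Balb/c mock replicate 2 was left out (otherwise log2 1.26 to 1.80, adjusted p 0.0559 to 0.138) and was lost with a slide block (adjusted p = 0.0883), although the difference within slide 1 was 1.80. The C57BL6 4 h call was lost without either C57BL6 4 h array or C57BL6 mock replicate 2 (log2 2.03 to 2.22, adjusted p up to 0.0781). Cd40 at 18 h was below its 4 h level by 1.42 ± 0.28 in Balb/c cells and by 1.48 ± 0.28 in C57BL6 cells, which missed the threshold (adjusted p = 0.077 and 0.0624) and passed it with the replicate block (adjusted p = 0.0405 and 0.032). Leaving out one or the other Balb/c mock array also brought both past it (adjusted p = 0.0256 and 0.0204).

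**Figure D3:**
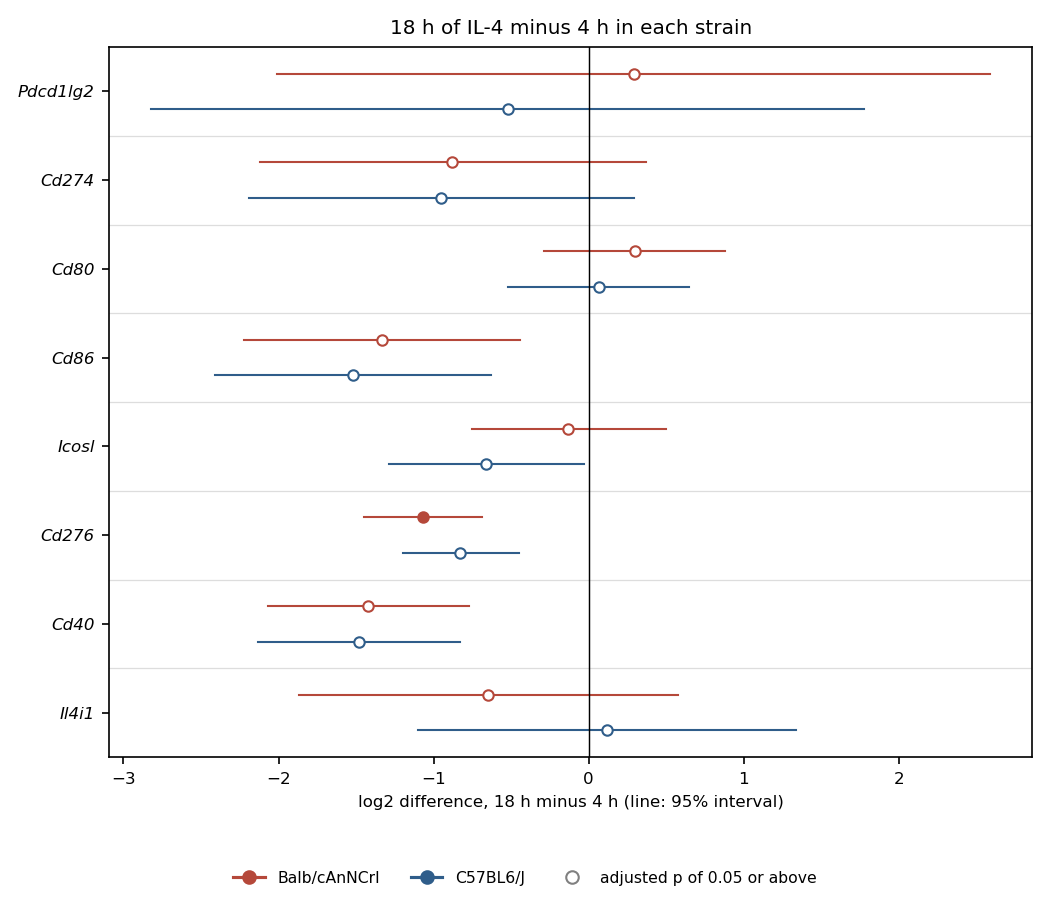
Log2 difference between 18 h and 4 h of IL-4, 18 h minus 4 h, for each gene in Balb/c and C57BL6 cells. Points are limma estimates, lines their 95% intervals and filled points have an adjusted p under 0.05. Only Cd276 in Balb/c cells is filled, a point that rests on 18 h spots not well above background and is read as at least 1.74-fold lower, and the intervals of Cd86, Cd40 and Cd276 lie wholly below 0 in both strains.

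Between 18 h and 4 h of IL-4, 1 of 8 members was called in Balb/c cells (Cd276, lower), against 0.901% of all genes tested, 0.244% higher and 0.657% lower. In C57BL6 cells 0 of 8 were called, against 1.01% of all genes, 0.342% higher and 0.668% lower. At an unadjusted p under 0.05 the counts were 3 and 4 of 8, beside 1991 and 2029 genes. The arrays of the 2 times did not overlap for 4 members in Balb/c and 6 in C57BL6 cells, against 35.2% and 49.5% of all genes. With the replicate block the members called were 3 of 8 in Balb/c cells (Cd274, Cd276 and Cd40) and 4 of 8 in C57BL6 cells (the same 3 genes and Icosl), all lower at 18 h, with 6.05% and 6.8% of all genes called. The blocked differences of Cd274 were -0.88 in Balb/c cells and -0.95 in C57BL6 cells (adjusted p = 0.0183 and 0.0126), and that of Icosl in C57BL6 cells was -0.66 (adjusted p = 0.0496). Pdcd1lg2 and Il4i1 were called in neither strain by either fit. The median difference over the members was -0.76 in Balb/c and -0.74 in C57BL6 cells, beside -0.04 and -0.01 over all genes.

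Cd276, the B7-H3 gene, was the one member called between the strains. Balb/c cells had levels of -4.49 and -4.22 in mock, -4.42 and -4.20 after 4 h, and -5.37 and -5.39 after 18 h. C57BL6 cells had -2.46 and -2.31 in mock, -2.29 and -2.15 after 4 h, and -2.96 and -3.13 after 18 h. No Balb/c array reached the lowest C57BL6 array, and the probe was not well above background on either Balb/c 18 h array. In scanner units the mock signal was 54.8 and 74 in Balb/c cells, against 256 and 342 in C57BL6 cells.

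Cd276 was 3.91-fold lower in Balb/c than in C57BL6 mock cells (log2 -1.97 ± 0.16, adjusted p = 4.73e-04), 4.25-fold lower at 4 h (-2.09 ± 0.16, adjusted p = 3.58e-04) and at least 4.18-fold lower at 18 h (adjusted p = 2.05e-04). It was the 1 of 8 members called, and called lower, in each of these 3 comparisons. Of all genes tested, 5.24% were called in mock cells (2.49% higher, 2.75% lower), 4.05% at 4 h (1.99% higher, 2.07% lower) and 5.16% at 18 h (2.29% higher, 2.87% lower). The strains' arrays did not overlap for 3, 3 and 4 members, against 47.9%, 39.3% and 49.9% of all genes. The calls held without any 1 of the 12 arrays, at log2 -1.83 to -2.10 in mock cells and -1.98 to -2.20 at 4 h, and with a slide block, at -1.79 and -1.96 (adjusted p = 0.0212 and 0.00611, and 0.0141 at 18 h, where the size is a bound). The strains share a slide only at 4 h, where the difference was -1.91 on slide 2. Under normexp background correction the differences were -0.89, -0.09 and -0.90, none called, so the size of the gap at these low signals depends on how background is treated. Of 7 neutrophil markers, 5 were well above background in Balb/c and 6 in C57BL6 mock cells, and their summed level was 3.43 to 4.25 in Balb/c mock cells, against 12.1 to 15.3 in C57BL6 mock cells. The B cell, eosinophil, mast cell and stromal cell sums of mock cells differed the same way. The macrophage, dendritic cell and T cell sums were higher in Balb/c mock cells. The part of these cell types in the strain difference was not tested, and the result rests on 1 probe.

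After 4 h of IL-4 Cd276 differed from mock by 0.05 ± 0.16 in Balb/c and 0.17 ± 0.16 in C57BL6 cells, called in neither. Within Balb/c cells Cd276 at 18 h was at least 1.69-fold lower than in mock (adjusted p = 0.0134) and at least 1.74-fold lower than at 4 h (adjusted p = 0.0327), the 18 h side being not well above background. The call against mock was lost without either 18 h array or Balb/c mock replicate 2 (adjusted p up to 0.0892), and the call against 4 h was kept only without one or the other Balb/c mock array (otherwise adjusted p 0.0609 to 0.195). Quantile and median scaling lost both (adjusted p 0.0541 and 0.0672 against mock, 0.128 and 0.164 against 4 h). The adjusted p beside each bound comes from the values without a floor. With every value raised to at least the array's lowest level well above background, the call against 4 h was lost too, with 0 of 8 members called. In C57BL6 cells, where every array was well above background, the 18 h level was -0.66 ± 0.16 against mock and -0.83 ± 0.16 against 4 h (adjusted p = 0.0702 and 0.0731). With the replicate block both were called in C57BL6 cells (adjusted p = 0.0236 and 0.023).

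**Figure D4:**
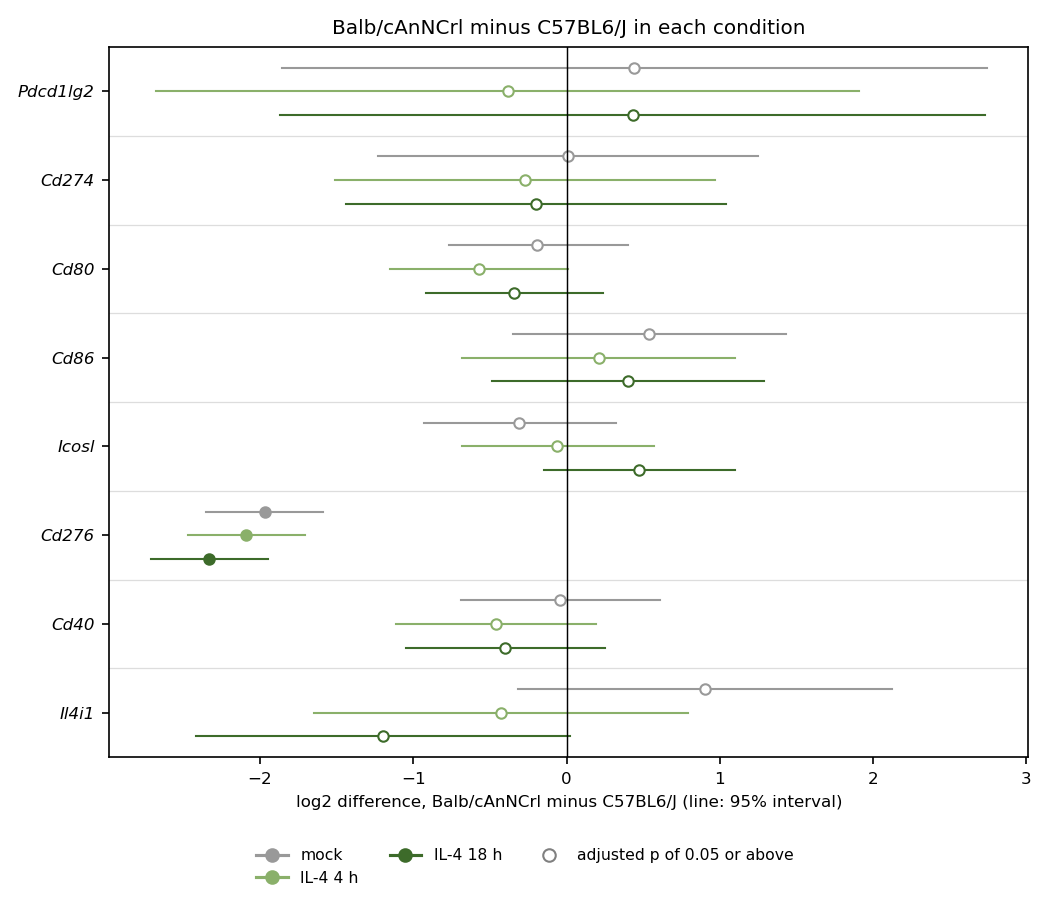
Log2 difference between the strains, Balb/c minus C57BL6, for each gene in mock cells and after 4 h and 18 h of IL-4. Points are limma estimates, lines their 95% intervals and filled points have an adjusted p under 0.05. Cd276 is filled in all 3 conditions, at -1.97 in mock cells and -2.09 at 4 h, and every other gene is open. Its 18 h point rests on Balb/c spots not well above background, so only the bound of at least 4.18-fold lower is read from it.

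None of the other 7 members was called between the strains, which does not show that the strains were alike. Il4i1 was 0.90 ± 0.53 higher in Balb/c than in C57BL6 mock cells and 1.20 ± 0.53 lower at 18 h (adjusted p = 0.387 and 0.279). Cd80 was lower in Balb/c cells by 0.57 ± 0.25 at 4 h (adjusted p = 0.356), and its further probe by 0.81 ± 0.30 (adjusted p = 0.247). The intervals were narrowest for Cd80, Icosl and Cd40, for which the mock difference lay within -0.77 to 0.40, -0.93 to 0.32 and -0.69 to 0.61. They were widest for Pdcd1lg2, at -1.86 to 2.74 in mock. No difference between the strains in the response to IL-4 was called for any member or any other gene at 4 h or at 18 h (limma, 0 of 18426). At an unadjusted p under 0.05, 447 and 977 genes and 0 and 1 members (Il4i1 at 18 h) passed.

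Over the 12 arrays, the levels of Pdcd1lg2 and Il4i1 ran together (Pearson's r 0.95), and Icosl ran opposite to both (r -0.89 and -0.92). Cd274 correlated with both at 0.78 and with Cd40 at 0.72. Cd80 stayed within -0.30 and 0.51 of every other member, and Cd276 reached at most 0.51. These are descriptions of 12 arrays that share slides and group structure, and no test was made of them.

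**Figure D5:**
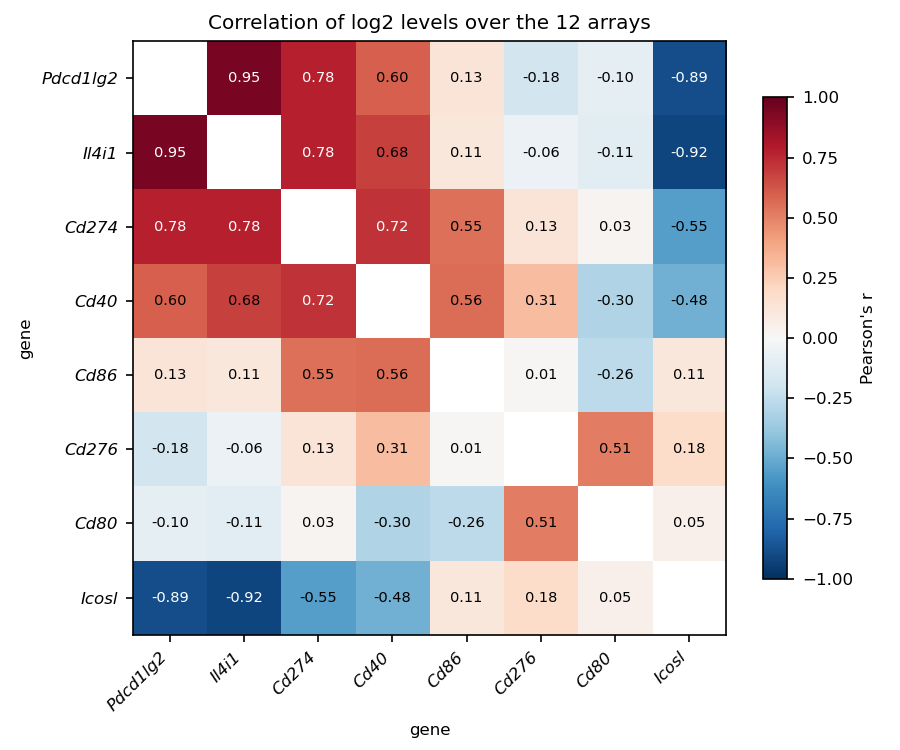
Pearson correlation of log2 levels between each pair of the 8 genes over the 12 arrays, both axes listing the genes and the colour running from -1 to 1. The darkest red off-diagonal square is Pdcd1lg2 with Il4i1 at 0.95, and the darkest blue squares are Icosl with Il4i1 at -0.92 and with Pdcd1lg2 at -0.89.

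Among the 11460 other named genes well above background on all 12 arrays, those whose levels over the 12 arrays were most like Pdcd1lg2 were Cish (r 0.989), Casp6 (0.983) and St8sia1 (0.970). For Il4i1 they were Atp6v0a1 (0.986), Egr2 (0.983) and Plekhf1 (0.975), and for Icosl they were Dennd1c (0.955), Arrb2 (0.948) and Gsap (0.946). Cd274 ran closest to Ehd4 and Dmxl1 (both 0.949) and Picalm (0.941), and Cd40 to Gne (0.965), Cdk7 (0.960) and Tes (0.957). Cd276 ran closest to Tap2 (0.992), Trim34a (0.986) and Uqcc1 (0.977). Cd86 ran closest to Cfap410 (0.957), and Cd80, whose highest value was the lowest of the 8 members, to Cep120 (0.905). The search for each of the other 6 members ran over 11459 genes. With so many genes searched, high values are bound to turn up, and nothing is read from them about function.

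CD40 signals through TRAF adaptors to NF-kappaB, and of 11 listed genes of that route, all tested, 0 rose against mock in either strain at either time, while 0 fell in Balb/c cells at 4 h, 1 at 18 h, 1 in C57BL6 cells at 4 h and 2 at 18 h, against 0.488%, 2.36%, 1.68% and 2.6% of all genes called lower. Traf1, an adaptor that NF-kappaB itself induces, was 2.15 and 2.57 in Balb/c mock cells, 1.36 and 1.62 after 4 h and 1.20 and 1.1 after 18 h. In C57BL6 cells Traf1 was 3.37 and 3.62 in mock, 2.00 and 1.74 after 4 h and 1.90 and 1.65 after 18 h, with no IL-4 array reaching a mock array of its strain. Traf1 fell by 1.21 ± 0.21 in Balb/c cells at 18 h, and by 1.62 ± 0.21 at 4 h and 1.72 ± 0.21 at 18 h in C57BL6 cells (adjusted p = 0.0174, 0.00665 and 0.00419). Nfkb2, the NF-kappaB subunit of the non-canonical pathway, fell by 0.99 ± 0.21 in C57BL6 cells at 18 h (adjusted p = 0.0443). Its Balb/c difference of -0.95 ± 0.21 at 18 h was not called (adjusted p = 0.054). The list's median change was 0.02 and -0.60 in Balb/c and -0.21 and -0.53 in C57BL6 cells at 4 h and 18 h, beside 0.02, 0.02, -0.03 and -0.04 over all genes.

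The TNF-family costimulation list, ligands and receptors such as those of OX40, 4-1BB and GITR, had 11 of 13 genes tested. None rose, and 1 fell in each strain at 18 h, against 2.36% of all genes lower in Balb/c and 2.6% in C57BL6 cells. Tnfsf8, the CD30 ligand, fell by 1.65 ± 0.25 in Balb/c cells at 18 h (adjusted p = 0.00938). Its C57BL6 difference of -0.99 ± 0.25 at 18 h was not called (adjusted p = 0.0686). Tnfsf14, the ligand LIGHT, was 1.87 and 1.72 in C57BL6 mock cells, 1.95 and 2.19 after 4 h and 0.29 and 0.00 after 18 h, a fall of 1.65 ± 0.22 at 18 h (adjusted p = 0.00592). In Balb/c cells Tnfsf14 differed by -0.52 ± 0.22 at 18 h, not called (adjusted p = 0.313). Its receptor Tnfrsf14 (HVEM) was 1.72 ± 0.36 higher in Balb/c than in C57BL6 mock cells, while Tnfsf14 was 1.14 ± 0.22 lower (adjusted p = 0.0322 and 0.0223). No other gene of the list was called against mock or between mock cells, where 2.49% of all genes were higher and 2.75% lower in Balb/c. The list's median change was -0.18 and -0.52 in Balb/c and -0.13 and -0.15 in C57BL6 cells at 4 h and 18 h, beside 0.02, 0.02, -0.03 and -0.04 over all genes.

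Of 16 other adhesion and checkpoint ligands and receptors, all tested, 0 were called at 4 h in either strain. At 18 h, 4 fell in Balb/c cells and in C57BL6 cells 1 rose and 1 fell, against 2.36% of all genes lower in Balb/c cells and 1.69% higher and 2.6% lower in C57BL6 cells. Havcr2 (TIM-3), an inhibitory receptor, fell in both strains, by 1.79 ± 0.24 in Balb/c and 1.15 ± 0.24 in C57BL6 cells (adjusted p = 0.00566 and 0.0347). Its ligand Lgals9 fell by 1.31 ± 0.28 in Balb/c cells, as did Icam1, an adhesion molecule for T cells, by 1.00 ± 0.22, and Slamf7 by 1.54 ± 0.33 (adjusted p = 0.0459, 0.0484 and 0.0459). In C57BL6 cells the same differences were -0.75 ± 0.28, -0.90 ± 0.22 and -0.39 ± 0.33, none called (adjusted p = 0.212, 0.0645 and 0.636). The median over the 16 genes was -0.33 in Balb/c and -0.23 in C57BL6 cells at 18 h, and -0.07 and 0.06 at 4 h, beside medians over all genes of 0.02 and -0.04 at 18 h and 0.02 and -0.03 at 4 h. Cd200r1, an inhibitory receptor of macrophages, rose by 1.34 ± 0.26 in C57BL6 cells at 18 h (adjusted p = 0.0277). Its Balb/c difference of 0.71 ± 0.26 at 18 h was not called (adjusted p = 0.244). Between the strains in mock cells, Nectin3, a ligand of the nectin family, was 4.15 ± 0.62 higher in Balb/c, with C57BL6 well above background on 1 of 2 arrays, and Slamf7 was 2.58 ± 0.33 and Havcr2 1.01 ± 0.24 lower (adjusted p = 0.00752, 0.00384 and 0.0499).

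Of 6 binding partners of the members, most of them known from T cells, 3 were measurable, and their median change was -0.16 and -0.38 in Balb/c and -0.22 and 0.22 in C57BL6 cells at 4 h and 18 h (all genes 0.02, 0.02, -0.03 and -0.04). Ctla4, Pdcd1 and Cd40lg had no probe well above background on both arrays of any group. Icos was called in no IL-4 comparison, but was 2.52 ± 0.58 higher in Balb/c than in C57BL6 mock cells (adjusted p = 0.0495), at -1.45 and -2.79 in Balb/c, against -5.32 and -3.96 in C57BL6. Of 6 T cell markers 3 were well above background in mock cells of either strain, with a summed level of 0.27 to 0.32 in Balb/c, against 0.22 to 0.236 in C57BL6, and their part in the Icos difference was not tested. Of 7 butyrophilin and B7 relatives 2 were measurable and none was called in an IL-4 comparison or between mock cells. Of 9 amino acid catabolism genes, Il4i1's functional relatives, 8 were tested and Arg1, the IL-4-induced arginase, was the 1 that rose, in all 4 IL-4 comparisons (0.944%, 1.37%, 1.56% and 1.69% of all genes rose). The list's median change was 1.44 and 1.19 in Balb/c and 1.84 and 0.46 in C57BL6 cells at 4 h and 18 h (all genes 0.02, 0.02, -0.03 and -0.04), with no other gene of the list called against mock. The Arg1 increase over mock cells, where it was not well above background, was at least 36-fold at 4 h and at least 1180-fold at 18 h in Balb/c cells, and at least 300-fold and at least 1420-fold in C57BL6 cells (adjusted p at most 0.0012). Arg2, the mitochondrial arginase, was at least 16.5-fold higher in Balb/c than in C57BL6 mock cells (adjusted p = 0.00619).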

How the data were processed

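Total RNA of 12 samples was hybridised with Cy3 alone, 1 array per sample. Spots were read with Agilent Feature Extraction (version 9.5.1.1, from the submitters' processing notes), and the processed signal in the scanner files is a background-subtracted intensity per the file headers. The authors also deposited a linear ratio per probe, whose denominator is not given in the sources used here. On the 21164 probes well above background on all arrays the log2 ratio matched the 75th-percentile-scaled signal over its C57BL6 mock mean within an SD of 0.00432 on every array. Column medians of the ratios ran from 0.936 to 1.13.

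Control spots and outlier spots were left out, log2 intensity of replicate spots was averaged and the array's 75th percentile subtracted. Of 41174 probes, 27371 were kept, those that the scanner called well above background on each array of some group. The brightest kept probe of each gene was tested. Gene names came from accessions (17628 probes), current symbols (3977) or older symbols (1871) through RefSeq GRCm38.p6, or from the file (3895). The 6 group means entered a limma fit (version 3.58.1, R 4.3.3, 6 residual and 2.04 prior degrees of freedom) in 11 comparisons, with Benjamini-Hochberg adjustment over 18426 genes. The fit was tested on simulated data.

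Members and gene lists were chosen with earlier results of these data known. Named genes were all members, list genes called in an IL-4 comparison or between mock strains (up to 6 per list), and the 3 genes most correlated with each member. Same-numbered samples within a strain come from 1 experiment per the series text, and their deviations from group means correlated at 0.15 to 0.65, so the numbers were taken to pair them. Most same-numbered arrays also shared a slide, so a shared experiment and a shared slide cannot be fully told apart in these correlations. The 12 arrays lay on 3 slides of 4 arrays, and slide was tried as a block. Alternatives covered background, scaling, filtering, probes, samples, blocks and each array left out. A floor at the lowest level well above background was added after seeing the data.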

Additional observations from a re-analysis of the deposited data

How the results depend on the processing

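Over 23 alternatives the 8 genes gave 1978 alternative values, of which 1765 kept their direction and their side of the threshold, 119 lost a call (76 of them by leaving out 1 array), 19 gained one (12 of them with the replicate block) and 0 were reversed. Another 75 changed sign while called in neither fit. The 1765 include values of comparisons never called as reported, which kept their side by staying uncalled. Only values of comparisons called as reported could lose a call, so the 119 are not to be read as a share of the 1978. The counts of members called, taken in the order Balb/c 4 h, 18 h and 18 h against 4 h, C57BL6 4 h, 18 h and 18 h against 4 h, and the strains in mock, at 4 h and at 18 h, were 3, 4, 1, 4, 3, 0, 1, 1 and 1 as reported, with 1.43%, 3.73%, 0.901%, 3.25%, 4.29%, 1.01%, 5.24%, 4.05% and 5.16% of all genes called. They were 0, 0, 0, 0, 1, 0, 0, 0 and 0 under normexp background correction, which called 0.0163%, 0.749%, 0%, 0.13%, 0.706%, 0%, 0.163%, 0.141% and 0.581% of all genes, made 91.7% of C57BL6 4 h calls higher (48.2% as reported) and put the median change of all genes at -0.43 to 0.25, depending on the comparison. Fitting only the arrays compared, with 2 residual degrees of freedom, gave 0, 0, 0, 2, 2, 0, 1, 0 and 1, with 0%, 0.0923%, 0%, 0.385%, 1.74%, 0%, 1.35%, 0.483% and 3.88% of all genes. Requiring a probe to be well above background on all 12 arrays, which removes Pdcd1lg2 and Cd276, gave 2, 2, 1, 3, 2, 1, 0, 0 and 0 (1.35% to 5.94% of genes). No background filter gave 1, 3, 0, 3, 3, 0, 1, 1 and 1, with 0.434%, 1.58%, 0.17%, 1.1%, 1.67%, 0.195%, 2.13%, 1.84% and 2.21% of all genes. Median scaling gave 2, 2, 0, 4, 3, 0, 1, 1 and 1, with 0.971%, 2.82%, 0.521%, 2.05%, 3.06%, 0.559%, 3.89%, 3.33% and 3.82%, and quantile scaling 3, 3, 0, 4, 3, 0, 1, 1 and 1 (0.939% to 5.34%). The slide block gave 1, 4, 1, 4, 3, 0, 1, 1 and 1 (1.29% to 5.35%), and the floor 3, 4, 0, 4, 3, 1, 1, 1 and 1 (0.847% to 4.88%). The deposited ratios and the fit of every kept probe gave the reported counts. Neither is an independent check. The ratios match the same scaled signal on probes well above background on all arrays, and the fit of every kept probe holds the same member values. Because same-numbered samples were taken to pair within a strain, the replicate block was fitted for within-strain comparisons, where the counts were 5, 5, 3, 5, 5 and 4, with 6.05% to 17.4% of all genes called. It moved no strain difference in response past the threshold. Leaving out each array in turn gave 0 to 1, 0 to 4, 0 to 2, 0 to 4, 1 to 3 and 0 to 1 members in the 6 within-strain comparisons and 1 in each strain comparison, with 0% to 4.63% and 1.73% to 6.2% of all genes called. These alternatives were fitted to all genes, but single-gene results are reported for the 8 members and not for the other listed genes. The cause of these moves was not tested. Low signal limits Pdcd1lg2 in mock cells and Cd276 in Balb/c cells at 18 h, and 2 arrays in each group limit every comparison.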
